A study of Homo sapiens with 3 samples.

Results

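The genes described here are 29 established targets or regulators of the p53 pathway, out of the 19220 genes listed in the count table. They were taken by gene symbol from a list of names that was drawn up with earlier results of these data known, and all 29 symbols were found. RNA-seq was performed on CAL27, a human oral squamous cell carcinoma (OSCC) line grown in drug-free medium, and on 2 resistant lines derived from it. CAL27/5FU is 5-fluorouracil (5FU) resistant and was kept in 10 μM 5FU, a pyrimidine analog that blocks thymidylate synthesis and enters nucleic acids; the study raised this line by stepwise increases of the drug. CAL27/OXA is oxaliplatin (OXA) resistant and was kept in 10 μM OXA, a platinum compound that crosslinks DNA. One library per line was used, because the labels describe 1 sample each, so the differences below come without replication and without p-values. All 3 lines share the CAL27 background and a high-glucose medium with serum, and the sources used here do not say whether a resistant line is 1 clone. Since each resistant line was kept in its drug, resistance and the presence of the drug cannot be told apart.

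p53 is a transcription factor that is held at a low level by MDM2, a ubiquitin ligase and itself a p53 target, until DNA damage or other stress releases it. It then raises genes that stop the cell cycle, repair DNA, adjust metabolism or promote cell death, and its negative regulators among them close a feedback loop. Several of these genes are also bound by p63, a relative of p53 that maintains squamous epithelium, or respond to other stress pathways.

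p53 binds a pair of adjoining decamers known as the p53 consensus response element. This element was searched without a spacer in RefSeq promoter windows of GRCh38.p14, which run from 250 bases before to 50 bases after each start, and both strands are covered because the consensus is its own reverse complement. Of the 29 genes, 23 matched the promoter table, and GADD45A, PHLDA3, RRM2B, TNFRSF10A, TNFRSF10B and TP53INP1 were not searched. The sites with at most 2 mismatches are shown because they are the closest matches beside genes whose values follow, with bases that fit the consensus in capitals.
AEN: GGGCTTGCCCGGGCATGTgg
FAS: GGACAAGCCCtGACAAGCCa
MDM2: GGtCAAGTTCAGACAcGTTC
The AEN site lies at chr15:88621306-88621325 on the plus strand and overlaps an exon in GENCODE 29. The FAS site, at chr10:88991309-88991328 on the plus strand, also overlaps an annotated exon. The MDM2 site, at chr12:68808923-68808942 on the plus strand, lies in an intron of MDM2, before an internal start. Such a site was present in 0.820% of the 27305 genes with a window and in 3 of the 23 searched genes.

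With up to 3 mismatches, 7 of the 23 genes had a site, against 6.39% of all genes with a window. GDF15, which had the highest ratio of the 29 genes in CAL27/5FU, had a site at chr19:18386186-18386205 that begins at position 29 relative to its start, and MDM2 had a further site within a short distance of the first.
GDF15: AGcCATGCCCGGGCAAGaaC
MDM2, second site: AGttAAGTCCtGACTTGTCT
The second MDM2 site lies at chr12:68808961-68808980, and the MDM2 stretch that holds both sites (chr12:68808767-68808980, plus strand, sites in capitals) is shown for their arrangement.
MDM2 stretch: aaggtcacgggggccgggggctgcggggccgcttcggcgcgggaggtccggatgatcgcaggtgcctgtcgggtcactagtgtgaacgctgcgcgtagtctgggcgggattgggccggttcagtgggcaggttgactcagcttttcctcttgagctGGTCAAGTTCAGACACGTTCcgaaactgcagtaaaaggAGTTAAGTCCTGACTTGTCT
FDXR, RPS27L and SESN1 each had 1 site with 3 mismatches. A match describes the sequence only, and sites outside these windows were not searched.

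The CAL27 library held 41786182 counts, the CAL27/5FU library 37297713 and the CAL27/OXA library 43455488. Counts were scaled with TMM factors, which correct library totals for composition, and are given as CPM, counts scaled to the library size. Log2 ratios carry an exact 95% interval on the pair of counts, which covers counting error only, and a gene was called higher or lower past 2-fold. A mean of at least 10 counts was reached by 28 of the 29 genes and by 13676 genes in all. Epithelial markers were present throughout, but the summed level of 8 squamous markers was 13534 CPM in CAL27, against 2947 in CAL27/5FU and 3725 in CAL27/OXA. In CAL27/5FU 6 of the 8 were lower (KRT5, KRT14, KRT6A, KRT17, TP63 and DSG3), beside 6.72% of all genes. In CAL27/OXA 5 were lower (the same without TP63), beside 9.28% of all genes. The summed levels of 6 fibroblast markers were 42.0, 47.1 and 50.04 CPM with COL3A1 at 0 in all 3 libraries, those of 5 leukocyte markers 97.3, 79.9 and 122 CPM with PTPRC at 2, 0 and 0 counts, and those of 3 endothelial markers 2.57, 9.27 and 4.57 CPM. Among these, COL1A2, LUM and CDH5 were higher in both resistant lines, and CD14 was higher in CAL27/5FU and lower in CAL27/OXA. The other tested markers of these types did not all move alike. In CAL27/5FU and CAL27/OXA, VWF had log2 ratios of -1.14 and -0.75 and PECAM1 of -0.92 and -0.37. COL1A1 stood at -0.38 and -0.59, PDGFRB at 0.62 and 0.89, and CD68 at -0.79 and 0.50. The part of these marker differences in the results below was not tested. In these bulk samples, fewer cells of a type and less RNA per cell cannot be told apart.

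The 29 genes took 0.280% of all counts in CAL27, which compares with 0.195% in CAL27/5FU and 0.267% in CAL27/OXA. SFN and PERP alone made up 68.3%, 46.1% and 63.1% of these counts. By FPKM, which sets counts against gene length, SFN stood at 792, 421 and 916 in CAL27, CAL27/5FU and CAL27/OXA and PERP at 203, 80.0 and 112, and they ranked first and second in every library. At the other end, SPATA18 stood at 0.170, 0.286 and 0.0817 FPKM. EDA2R, a receptor of the TNF receptor family, had 0 counts in all 3 libraries, which allows up to 0.0770, 0.0766 and 0.0675 CPM, and it received no ratio. The numbers of genes above 10 FPKM were 14, 17 and 15.

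**Figure D1:**
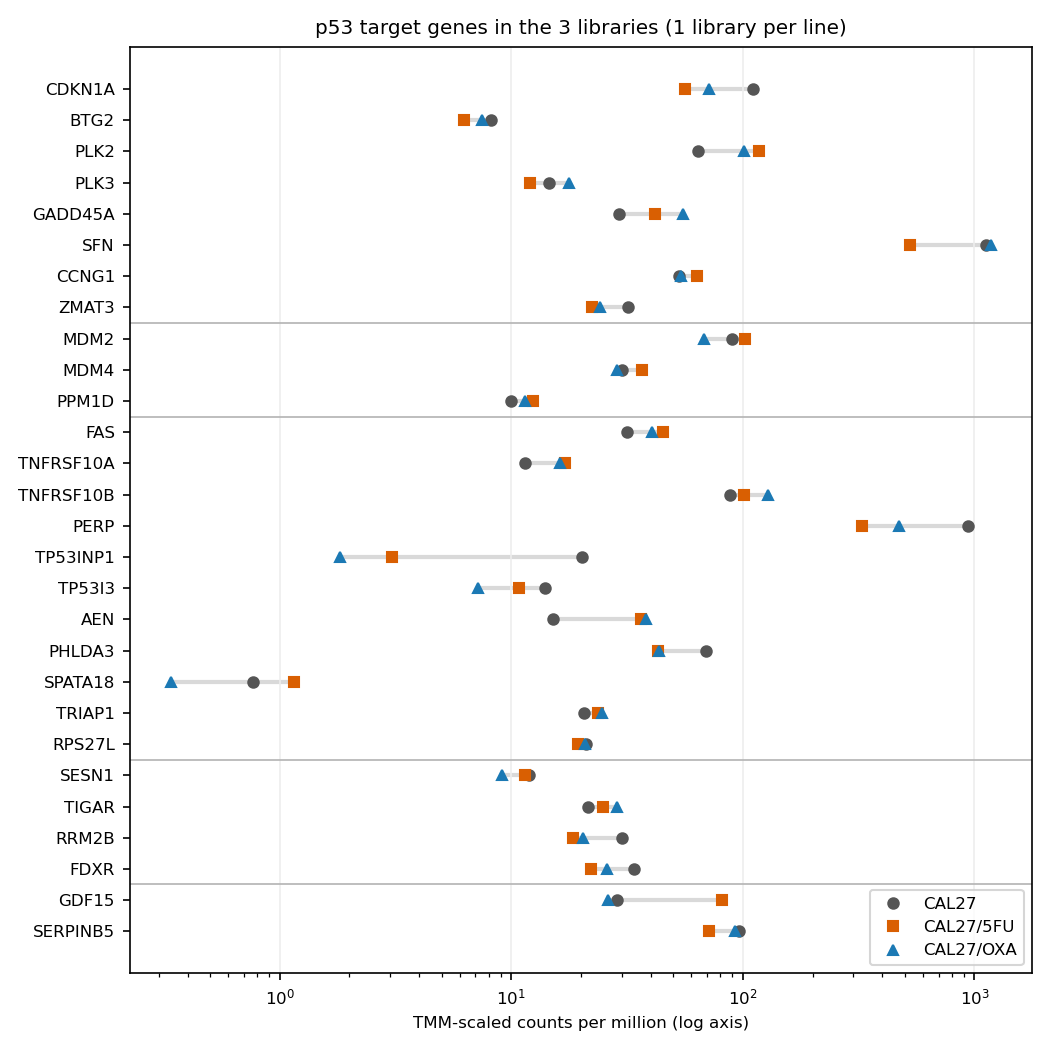
TMM-scaled CPM (log axis) of the 28 tested p53 target genes, with 1 point per library for CAL27 (circles), CAL27/5FU (squares) and CAL27/OXA (triangles), and horizontal lines between groups of genes with a like role. SFN and PERP lie at the high end and SPATA18 at the low end, and TP53INP1 shows the widest distance, from 20.2 CPM in CAL27 to 1.82 in CAL27/OXA.

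Between CAL27/5FU and CAL27, p53 targets moved in both directions. GDF15 and AEN were higher, PERP, SFN and TP53INP1 were lower, and 23 of the 28 tested genes stayed within 2-fold. The 2 higher genes are 7.14% of those tested, beside 8.46% of all genes, and the 3 lower ones are 10.7%, beside 6.72% of all genes. The ratio was positive for 14 genes and negative for 14, with a median log2 ratio of 0.07 beside -0.0035 for all genes. The median absolute log2 ratio was 0.51, against 0.33 for all genes. For all 5 called genes the whole counting interval lay past 2-fold, which held for 5.48% of all genes in the higher and 4.34% in the lower direction. Scaling by total counts raised the median of all genes to 0.17 and that of the p53 targets to 0.24, took SFN below 2-fold (-0.91 at its smallest) and took PLK2 past it (1.04). That scaling also changed the share of higher genes among all called genes from 55.7% to 67.2%.

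Between CAL27/OXA and CAL27, AEN was higher, TP53INP1 and SPATA18 were lower, and 25 genes stayed within 2-fold. The 1 higher gene is 3.57% of those tested, beside 6.54% of all genes, and the 2 lower ones are 7.14%, beside 9.28% of all genes. The ratio was positive for 12 genes and negative for 16, and the median was -0.06 beside 0.0055 for all genes, with a median absolute log2 ratio of 0.40 against 0.34. The whole interval lay past 2-fold for AEN, as it did in the higher direction for 3.85% of all genes, and for TP53INP1, as it did in the lower direction for 6.32%, but not for SPATA18. Scaling by total counts took the median of the p53 targets to 0.07 and that of all genes to 0.14, took GADD45A past 2-fold (1.05) and SPATA18 below it, and changed the share of higher genes among all called genes from 41.3% to 51.1%. Both comparisons share the CAL27 library, so their values are given side by side and were not correlated.

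**Figure D2:**
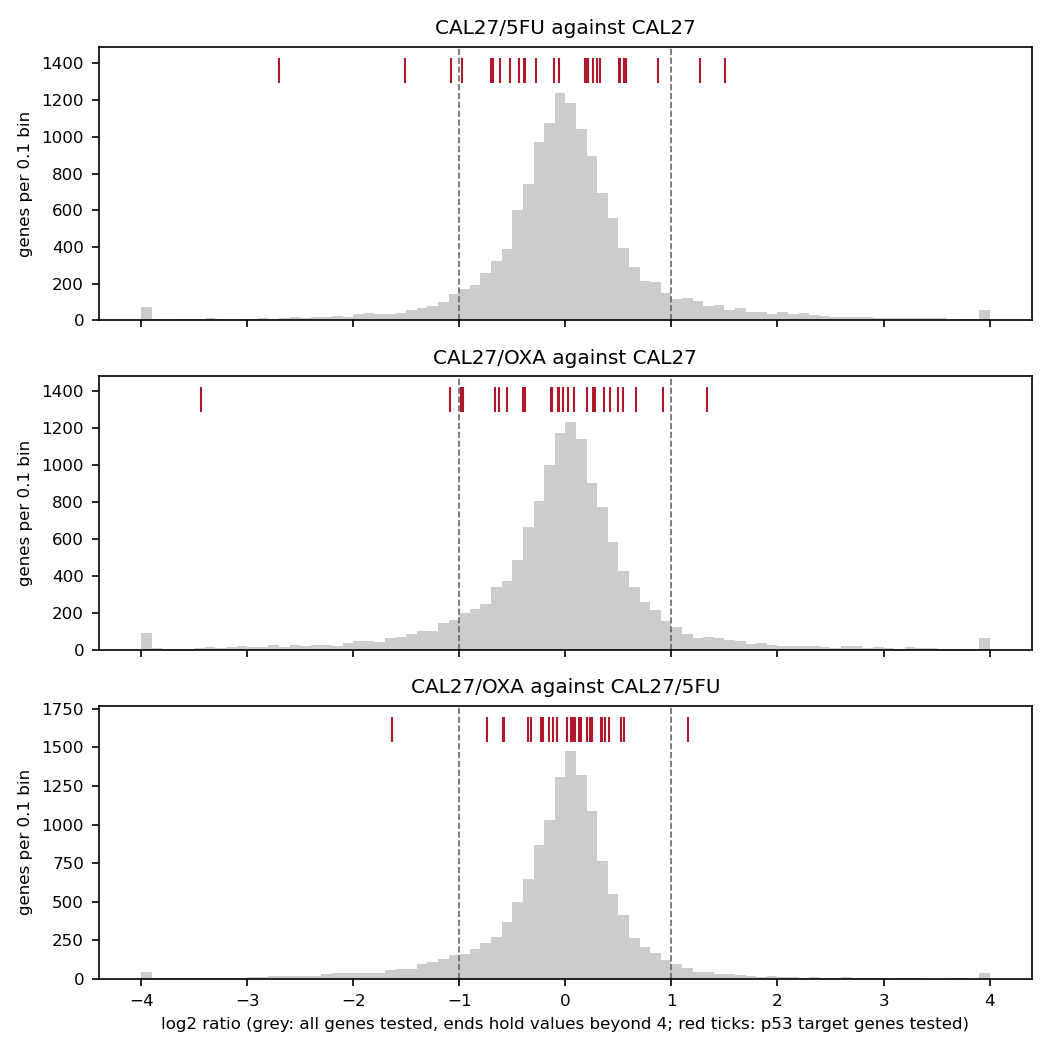
Number of genes per bin of 0.1 in log2 ratio for all 13676 tested genes (grey, with values beyond 4 gathered in the end bins), and the 28 tested p53 target genes (red ticks) in the 3 comparisons. Most ticks lie between the dashed 2-fold lines, and TP53INP1 is the leftmost tick in both comparisons with CAL27, at -2.70 and -3.44.

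Among the genes that arrest or slow the cell cycle, 1 of 8 was lower in CAL27/5FU, beside 6.72% of all genes, and all 8 stayed within 2-fold in CAL27/OXA, as did 84.2% of all genes. SFN, which encodes 14-3-3σ, a protein that holds cyclin B and CDK1 in the cytoplasm, had 43529 counts in CAL27, against 20652 in CAL27/5FU and 52368 in CAL27/OXA (1118, 528 and 1179 CPM). It was therefore low in CAL27/5FU alone, with a log2 ratio of -1.08 (-1.11 to -1.06), and stood at 0.08 (0.06 to 0.10) in CAL27/OXA. SFN (chr1:26863138-26864457, GRCh38) has no overlapping gene in the annotation.

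CDKN1A encodes p21, the CDK inhibitor through which p53 halts cells in G1. It had 4288 counts in CAL27, against 2197 in CAL27/5FU and 3178 in CAL27/OXA (110, 56.1 and 71.5 CPM), and its order was CAL27, CAL27/OXA, CAL27/5FU. The log2 ratios were -0.97 (-1.05 to -0.90) and -0.62 (-0.69 to -0.56), neither of them past 2-fold. Exons of CDKN1A on chr6:36676460-36687339 overlap those of the long noncoding RNA DINOL on the other strand over 146 bases, and the strandedness of the counting is not stated.

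PLK2, a Polo-like kinase of the stress response, had its lowest level in CAL27, with 63.9, 117 and 101 CPM in CAL27, CAL27/5FU and CAL27/OXA and log2 ratios of 0.87 and 0.66. GADD45A, which binds PCNA and p21 and takes part in G2 arrest, had 29.2, 41.6 and 55.3 CPM, with log2 ratios of 0.51 and 0.92. Both thus had higher values in each resistant library, within 2-fold under this scaling. ZMAT3, an RNA-binding regulator of splicing, had 31.9, 22.2 and 24.2 CPM and log2 ratios of -0.52 and -0.39. BTG2, an antiproliferative partner of the mRNA deadenylase complex, had 8.19, 6.26 and 7.45 CPM, and the interval of its CAL27/OXA ratio included 0 (-0.36 to 0.09). PLK3 had 14.6, 12.03 and 17.7 CPM and CCNG1, an atypical cyclin that recruits PP2A to MDM2, had 53.1, 63.6 and 54.1 CPM. The log2 ratios of PLK3 were -0.28 and 0.28 and those of CCNG1 were 0.26 and 0.03.

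The 3 genes of the negative feedback on p53 stayed within 1.5-fold of CAL27 in both lines, as did 70.7% of all genes in CAL27/5FU and 68.9% in CAL27/OXA. MDM2 had 3492 counts in CAL27, against 3997 in CAL27/5FU and 3013 in CAL27/OXA (89.6, 102 and 67.8 CPM), with log2 ratios of 0.19 (0.12 to 0.25) and -0.40 (-0.47 to -0.33). Its level was thus highest in CAL27/5FU and lowest in CAL27/OXA. The MDM2 sites shown above were read from the reference sequence, and the DNA of the lines themselves was not examined. MDM4, which masks the activation domain of p53, had 29.9, 36.7 and 28.7 CPM with log2 ratios of 0.29 and -0.06. PPM1D, the phosphatase WIP1 that reverses damage signalling, had 9.96, 12.5 and 11.5 CPM with log2 ratios of 0.32 and 0.20. All 3 had their highest level in CAL27/5FU. MDM2 shares 133 exon bases with CPM, a carboxypeptidase gene on the other strand, which had 174, 338 and 530 counts. It also shares 785 exon bases with AC025423.4 on the other strand and 439 with the pseudogene AC025423.2 on the same strand. Neither of these is among the genes counted.

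Genes of cell death and of survival after damage held the largest difference in both lines. Of 11 tested, 1 was higher (9.09%) and 2 were lower (18.2%) in each line, beside 8.46% and 6.72% of all genes in CAL27/5FU and 6.54% and 9.28% in CAL27/OXA. TP53INP1, a stress-induced nuclear protein that promotes p53 phosphorylation and autophagy, had 788 counts in CAL27, against 120 in CAL27/5FU and 81 in CAL27/OXA (20.2, 3.07 and 1.82 CPM). It fell in both resistant lines, with log2 ratios of -2.70 (-3.01 to -2.44) and -3.44 (-3.82 to -3.14), which are 6.51-fold and 10.8-fold lower levels. It was the lowest of the 28 genes in both comparisons. Over 9 alternatives its ratio ran from -2.72 to -1.47 in CAL27/5FU and from -3.46 to -1.71 in CAL27/OXA. It was past 2-fold in all of them. The smallest change came with FPKM and a pseudocount of 1, which exceeds its FPKM of 0.571 and 0.331 in the resistant lines.

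AEN, an apoptosis-enhancing nuclease, had 587 counts in CAL27, against 1423 in CAL27/5FU and 1698 in CAL27/OXA (15.1, 36.4 and 38.2 CPM). It rose by log2 ratios of 1.27 (1.13 to 1.41) and 1.34 (1.21 to 1.48) and was the one gene of the 28 higher in both lines. Its closest match to the consensus, shown above, had 2 mismatches, as did those of FAS and MDM2, which stayed within 2-fold. The part of these matches in the levels was not tested. PERP, a tetraspan protein of desmosomes and of p53-dependent death, had 36442 counts in CAL27, against 12836 in CAL27/5FU and 20959 in CAL27/OXA (936, 328 and 472 CPM). It fell in CAL27/5FU by 1.51 on the log2 scale (-1.54 to -1.48), and its ratio in CAL27/OXA was -0.99 (-1.01 to -0.96), at the edge of the 2-fold limit. PERP is a squamous epithelial gene as well as a p53 target. The squamous markers included 6 lower genes of 8 in CAL27/5FU and 5 in CAL27/OXA, beside 6.72% and 9.28% of all genes. CDH1 (-0.14 and -0.16) and EPCAM (0.39 and 0.03) stayed within 2-fold. The part of these marker differences in the PERP values was not tested.

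The death receptors had their lowest values in CAL27. FAS, the receptor of FAS ligand, had 31.5, 45.1 and 40.5 CPM in CAL27, CAL27/5FU and CAL27/OXA, with log2 ratios of 0.52 and 0.36. TNFRSF10A, the TRAIL receptor DR4, had 11.5, 17.1 and 16.2 CPM, with log2 ratios of 0.57 and 0.49. TNFRSF10B, the TRAIL receptor DR5, had 88.0, 102 and 128 CPM, with log2 ratios of 0.21 and 0.54. None of these 6 ratios passed 2-fold, and all 6 counting intervals lay above 0. Of all 13676 genes, 5003 had an interval above 0 in CAL27/5FU and 5192 in CAL27/OXA. TNFRSF10D, a related receptor gene among the further p53 targets below, went the other way. Its log2 ratios were -0.27 (-0.44 to -0.11) and -0.48 (-0.65 to -0.31). Exons of FAS (chr10:88990582-89015785) and of ACTA2 on the other strand overlap by 380 bases, and ACTA2 had 92, 379 and 229 counts with log2 ratios of 2.01 and 1.11. The part of such shared bases in the FAS values was not tested.

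TP53I3, a quinone oxidoreductase linked to oxidative stress, had 547, 421 and 319 counts in CAL27, CAL27/5FU and CAL27/OXA and log2 ratios of -0.38 (-0.57 to -0.20) and -0.96 (-1.17 to -0.77). PHLDA3, a repressor of AKT, had 69.2, 43.2 and 43.6 CPM and log2 ratios of -0.68 and -0.67. It shares 598 exon bases with the noncoding gene AC096677.2 on the same strand, which is not among the genes counted. SPATA18, a mitochondrial quality control gene, had 30 counts in CAL27, against 45 in CAL27/5FU and 15 in CAL27/OXA. Its ratio of -1.08 in CAL27/OXA has an interval of -2.19 to -0.25 and was past 2-fold in 4 of 8 alternatives, so the depth does not settle its size. TRIAP1, which restrains apoptosis at the mitochondrion, had 20.5, 23.8 and 24.6 CPM. RPS27L, a ribosomal protein paralog that affects MDM2 and p53 turnover, had 21.0, 19.5 and 20.7 CPM, and both of its intervals included 0.

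**Figure D3:**
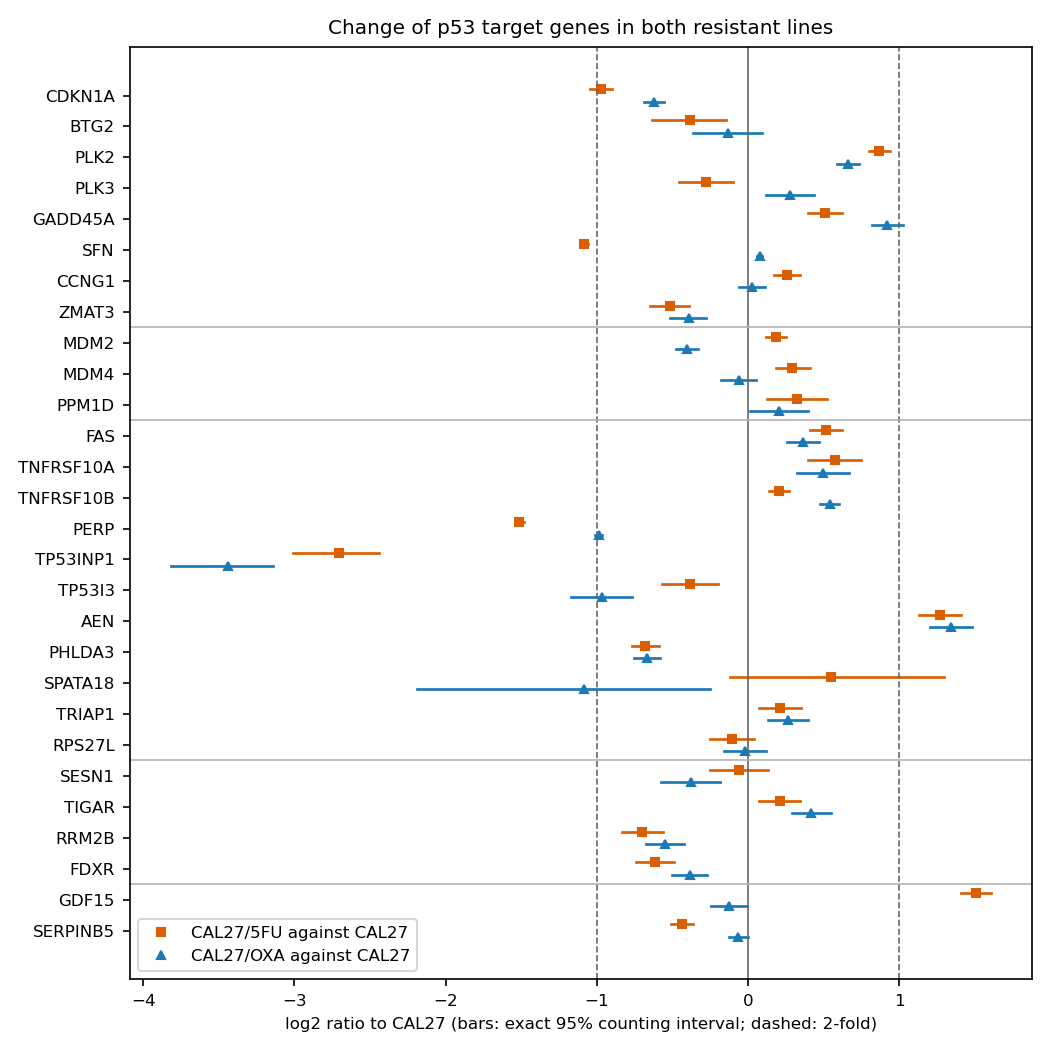
Log2 ratio to CAL27 of the 28 tested p53 target genes in CAL27/5FU (squares) and CAL27/OXA (triangles), 1 library each, where bars are exact 95% counting intervals and dashed lines mark 2-fold. AEN lies right of the upper line in both lines and TP53INP1 left of the lower one, while the square and the triangle lie far apart for GDF15 (1.51 and -0.12) and SFN (-1.08 and 0.08).

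The 4 genes of metabolism and DNA precursor supply stayed within 2-fold, as did 84.8% of all genes in CAL27/5FU and 84.2% in CAL27/OXA. RRM2B, the p53-inducible subunit of ribonucleotide reductase, had 1167 counts in CAL27, against 722 in CAL27/5FU and 909 in CAL27/OXA (30.0, 18.4 and 20.5 CPM), with log2 ratios of -0.70 (-0.84 to -0.56) and -0.55 (-0.68 to -0.42). FDXR, the mitochondrial ferredoxin reductase, had 34.0, 22.2 and 26.0 CPM with log2 ratios of -0.61 and -0.39. Both had their highest level in CAL27. SESN1, a sestrin that restrains mTORC1, had 11.9, 11.4 and 9.14 CPM with log2 ratios of -0.06 and -0.38. TIGAR, a bisphosphatase that lowers glycolytic flux, had 21.4, 24.8 and 28.7 CPM with log2 ratios of 0.21 and 0.42. It shares 1711 exon bases with the protein-coding gene AC008012.1 on the same strand, which is not among the genes counted. The part of such shared bases in the TIGAR values was not tested.

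GDF15, a secreted stress cytokine of the TGF-β superfamily that is also induced by the integrated stress response, had 1115 counts in CAL27, against 3186 in CAL27/5FU and 1166 in CAL27/OXA (28.6, 81.4 and 26.2 CPM). It was high in CAL27/5FU alone, where it rose 2.84-fold with a log2 ratio of 1.51 (1.41 to 1.61), the highest of the 28 genes. In CAL27/OXA its ratio was -0.12 (-0.24 to -0.01), a value that became 0.01 under scaling by total counts. By FPKM only SFN and PERP ranked above it among the p53 targets in CAL27/5FU. SERPINB5, the serpin maspin of epithelial cells, had 96.5, 71.4 and 92.3 CPM with log2 ratios of -0.44 and -0.06.

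Set against each other, CAL27/OXA and CAL27/5FU differed past 2-fold in 3 p53 targets, and 25 stayed within. SFN was higher in CAL27/OXA, with a log2 ratio of 1.16 (1.14 to 1.18), which is 3.57% of the genes tested beside 4.18% of all genes. GDF15 and SPATA18 were lower, with -1.63 (-1.73 to -1.54) and -1.63 (-2.72 to -0.90), which is 7.14% beside 8.38% of all genes. The whole interval lay past 2-fold for SFN and GDF15 only, beside 2.33% of all genes in the higher and 5.18% in the lower direction. For both, the intervals against CAL27 lay on opposite sides of 0 in the resistant lines, which together with a direct difference past 2-fold held for 2 of 28 genes, beside 3.36% of all genes. The median log2 ratio was 0.06 beside 0.0079 for all genes, and the median absolute log2 ratio was 0.28 against 0.29. AEN, which was higher in both lines, had a ratio of 0.07 between them (-0.03 to 0.17), and PHLDA3 one of 0.01 (-0.08 to 0.11). TP53INP1 had a ratio of -0.73 (-1.17 to -0.33).

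The related transcription factor genes TP63 and TP73 were counted as well. TP63 had 23645, 9759 and 29498 counts in CAL27, CAL27/5FU and CAL27/OXA, fell in CAL27/5FU with a log2 ratio of -1.28 (-1.32 to -1.25) and stood at 0.13 (0.10 to 0.15) in CAL27/OXA. TP73 had 1149, 671 and 604 counts with log2 ratios of -0.78 and -1.11, and the latter was past 2-fold in 6 of 9 alternatives.

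Regulators upstream of p53 and its cofactors, such as damage kinases and acetyltransferases, mostly stayed near their CAL27 level. Of 23 tested, all stayed within 2-fold in CAL27/5FU and 22 in CAL27/OXA, where 1 was lower, beside 84.8% and 84.2% of all genes, and the medians were -0.08 and -0.01. That gene was PPP1R13B, which encodes ASPP1, a p53 cofactor for apoptotic targets, with log2 ratios of -0.87 and -1.01 and past 2-fold in CAL27/OXA in 5 of 9 alternatives. HIPK2, a kinase of p53, had the highest ratio of the list in CAL27/5FU (0.86, and 1.03 under total counts), and CHEK1, the checkpoint kinase, that in CAL27/OXA (0.56).

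A further 52 tested p53 targets, listed from general knowledge but with earlier results of these data known, moved in both directions as well. In CAL27/5FU 7 were higher and 5 lower, which is 13.5% and 9.62% beside 8.46% and 6.72% of all genes. In CAL27/OXA 5 were higher and 6 lower, which is 9.62% and 11.5% beside 6.54% and 9.28%. The list had medians of -0.03 and -0.02 that became 0.14 and 0.11 under total counts, as all genes shifted by a like amount. The highest were THBS1 (2.57), an inhibitor of angiogenesis, FUCA1 (2.15), a lysosomal fucosidase, and LIF (1.72), a cytokine, in CAL27/5FU, and EPHA2 (1.51), E2F7 (1.37) and LIF (1.14) in CAL27/OXA. LIF had 1077 counts in CAL27, against 3569 in CAL27/5FU and 2704 in CAL27/OXA. ABCA12, a keratinocyte lipid transporter, fell in both lines with log2 ratios of -1.92 and -2.26, and RALGDS with -1.34 and -1.58. CYFIP2 had 401, 93 and 926 counts and log2 ratios of -2.09 and 1.01. The CYFIP2 ratio between the resistant lines, 3.11, was the highest of this list.

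The CDK inhibitors other than p21 included 3 lower genes of 6 in CAL27/5FU and 2 in CAL27/OXA, beside 6.72% and 9.28% of all genes. In both lines 0 were higher, beside 8.46% and 6.54% of all genes. The whole interval lay past 2-fold in each line for CDKN2B only, beside 4.34% and 6.32% of all genes in the lower direction. In CAL27/5FU the count of lower genes was 2 under total counts and 0 with FPKM and a pseudocount of 1. CDKN2B, the p15 inhibitor of CDK4 and CDK6, had 1405, 616 and 566 counts in CAL27, CAL27/5FU and CAL27/OXA and fell with log2 ratios of -1.19 and -1.50. CDKN1C had only 40, 13 and 20 counts with ratios of -1.50 and -1.11, and CDKN2D had ratios of -1.01 and -0.38. CDKN2D in CAL27/5FU was past 2-fold in 5 of 9 alternatives and CDKN1C in 7 of 8 there and 5 of 8 in CAL27/OXA. CDKN1B stood at -0.27 and -0.11, CDKN2C at -0.39 and 0.17, and CDKN2A at 0.05 and 0.25.

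Cell cycle genes that p21 is known to lower did not go past 2-fold as a group. Of 30 tested, 1 was lower in CAL27/5FU (CDC25C, -1.08, past 2-fold in 6 of 9 alternatives), which is 3.33% beside 6.72% of all genes. There 0 were higher, beside 8.46% of all genes. In CAL27/OXA all 30 stayed within 2-fold, as did 84.2% of all genes. The medians were -0.29 and 0.00. In CAL27/5FU 25 of the 30 ratios were negative (83.3%, beside 50.3% of all genes). CDKN1A was at -0.97 in the same comparison, and a link between these values was not tested. Between CAL27/OXA and CAL27/5FU, 28 of the 30 ratios were positive (93.3%, beside 50.8% of all genes), with a median of 0.26. MCM2 (1.33) and CDC25C (1.07) were higher, which is 6.67% beside 4.18% of all genes.

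**Figure D4:**
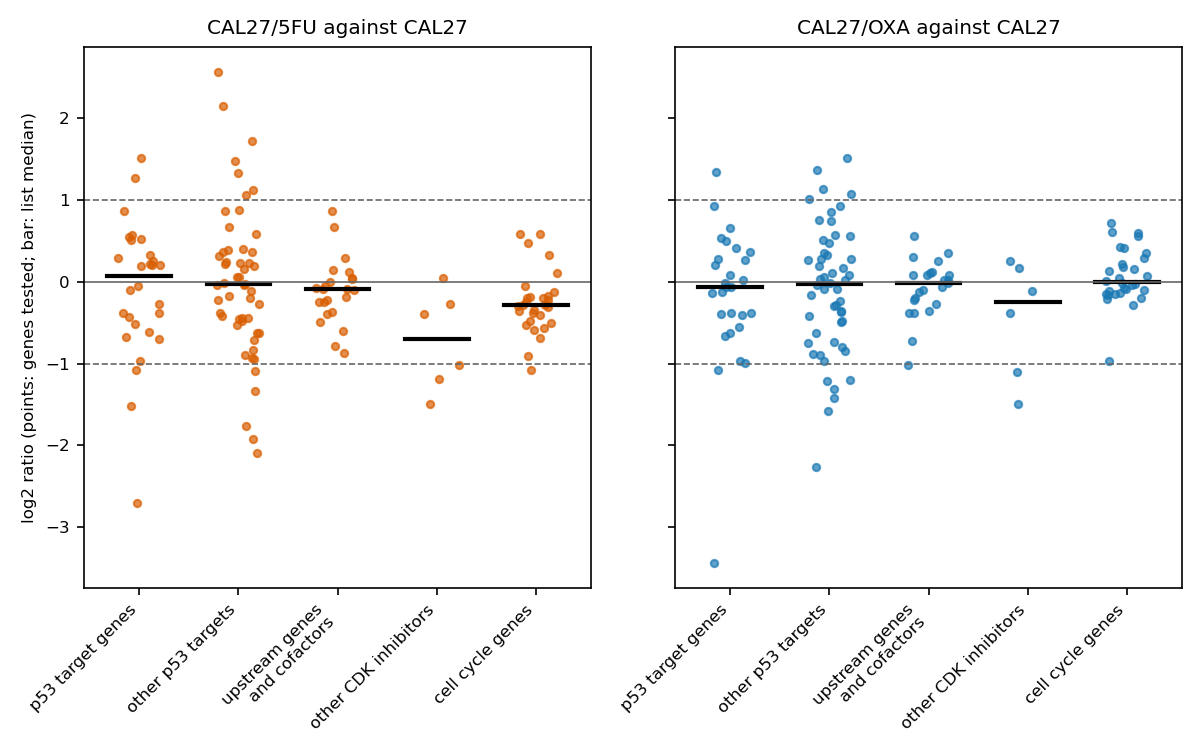
Log2 ratio to CAL27 of each tested gene (points) in the p53 targets and 4 lists of pathway genes, with the list median as a bar and dashed lines at 2-fold. The p53 targets and the other p53 targets spread to both sides of 0 with medians near it (0.07 and -0.03 in CAL27/5FU), while the upstream genes stay mostly inside the lines.

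For each p53 target past 2-fold, the tested neighbours on the chromosome (5 to either side) were listed to show whether a chromosome segment had moved with them. Around TP53INP1 (chr8:94925972-94949411) the 10 neighbours had a median log2 ratio of -0.87 in CAL27/5FU, with 5 lower, and of -0.90 in CAL27/OXA, with 4 lower. Of all genes, 6.72% and 9.28% were lower in these comparisons. All 10 neighbours were below 0 in both lines, beside 50.3% and 49.5% of all genes. TP53INP1 itself lay below every one of them. RRM2B on the same chromosome arm, named after its values were seen, had neighbours at -0.94 and -1.04, below its own ratios of -0.70 and -0.55. The part of a shared segment in the values of TP53INP1 and RRM2B was not tested.

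The neighbour medians of the other called genes lay closer to 0. In CAL27/5FU and CAL27/OXA they were -0.01 and 0.13 around AEN, -0.20 and -0.26 around GDF15, -0.23 and -0.29 around PERP, -0.24 and -0.11 around SFN, and 0.21 and 0.37 around SPATA18. Next to AEN on the right, however, ISG20 (1.48 and 1.06) and HAPLN3 (1.29 and 1.23) were higher in both lines, as AEN was, and the part of a shared segment was not tested. FAS, also named after its values were seen, had 10 neighbours with medians of 1.46 in CAL27/5FU and 0.03 in CAL27/OXA. In CAL27/5FU 6 of them were higher, beside 8.46% of all genes. Those 6 were STAMBPL1, ACTA2, CH25H and the interferon-induced genes IFIT1, IFIT2 and IFIT3, and FAS itself was at 0.52.

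**Figure D5:**
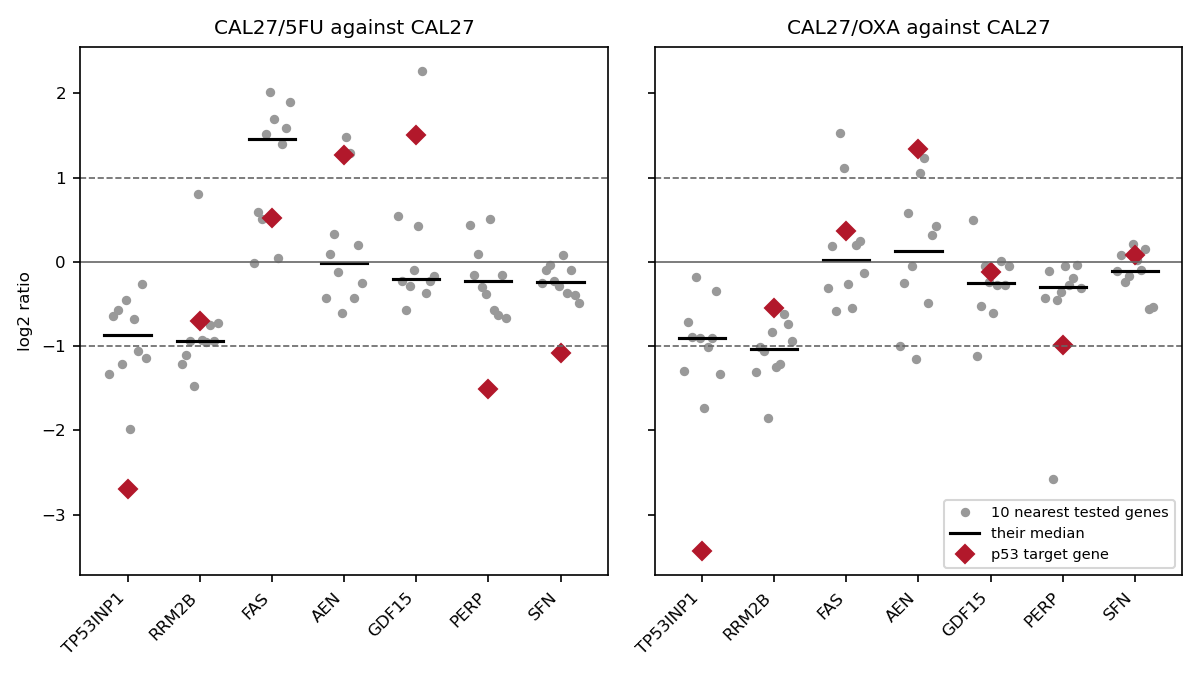
Log2 ratio to CAL27 of 7 p53 target genes (red diamonds) and of the 10 nearest tested genes of each (grey points, with their median as a bar), with dashed lines at 2-fold. Neighbours of TP53INP1 and RRM2B lie below 0 (medians -0.87 and -0.94 in CAL27/5FU), with 1 exception at RRM2B, those of FAS lie high in CAL27/5FU (1.46), and those of AEN, GDF15, PERP and SFN have medians near 0.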

How the data were processed

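Total RNA of CAL27, CAL27/5FU and CAL27/OXA cells was extracted and sequenced, and the submitters' processing notes name CASAVA 1.8, HISAT2 2.0.5 and GRCh38. The counting tool, annotation and strandedness are not given in the sources used here. The authors deposited raw read counts per gene symbol and FPKM values. In each of the 2 tables, 3 other columns of per-sample values have names that read as second samples of the lines, but they match no labelled sample and took no part in any step. The total counts were 41786182, 37297713 and 43455488.

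Counts were scaled with TMM factors (0.932, 1.05 and 1.02; edgeR 4.0.16, R 4.3.3), and log2 CPM took a prior count of 2. The filter kept genes whose mean over the libraries reached 10 counts. Intervals are exact 95% Clopper-Pearson intervals on the pair of counts, and the floor is 3 counts. With 1 library per line, no test across genes was run; the ratios are descriptive. The scripts were tested on simulated data. Positions came from GENCODE 29, promoter windows from RefSeq (GRCh38.p14). The genes named were all 29 p53 targets, TP63, TP73, all other CDK inhibitors, and the 3 highest and 3 lowest of each other list with a mean of at least 100 counts, of which some are printed. Cell type markers, overlapping genes and chromosome neighbours were named outside this rule. So was TNFRSF10D, beside the death receptors. A further gene is not reported here. The p53 targets and the lists were chosen with earlier results of these data known. Alternatives were scaling by total counts, the upper quartile or DESeq2 (1.42.0), other filters and prior counts, the whole interval past 2-fold, and the deposited FPKM with pseudocounts of 1 and 0.1. An FPKM with pseudocount 1 understates the change of low genes.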

Additional observations from a re-analysis of the deposited data

Results flagged for a closer look

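For 2 of the p53 targets, the ratios to CAL27 lay on opposite sides of 0 in the resistant lines, intervals included, and the lines differed directly by over 2-fold. This is 2 of 28, beside 3.36% of all 13676 genes tested. SFN was at -1.08 in CAL27/5FU and 0.08 in CAL27/OXA, and its log2 ratio between CAL27/OXA and CAL27/5FU was 1.16. GDF15 was at 1.51 and -0.12, and its log2 ratio between CAL27/OXA and CAL27/5FU was -1.63. With 1 library per line, neither difference was tested. The sign of the CAL27/OXA ratio of GDF15 was kept in 6 of 9 alternatives, and its value was 0.01 under scaling by total counts. The ratio between the resistant lines kept its sign and stayed past 2-fold in 9 of 9 alternatives for both genes.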

How the results depend on the processing

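No paired analysis was possible because only 1 labelled library per line was used, which also meant that no library could be left out; the columns that read as second samples have no label here. Under total counts, FPKM with a pseudocount of 1 and FPKM with a pseudocount of 0.1, the CAL27/OXA comparison had 2 p53 targets higher and 1 lower, as GADD45A passed 2-fold and SPATA18 did not, and its median became 0.0703, 0.0603 and 0.0691. The median in CAL27/5FU became 0.24 under total counts and 0.23 with FPKM and a pseudocount of 0.1, and it was -0.06 with a mean of at least 50 counts. Relative to the median of all genes, the total-count medians were 0.07 in CAL27/5FU and -0.07 in CAL27/OXA, as with TMM. In CAL27/OXA, 1 gene was lower with a mean of at least 50 counts, a prior count of 5 or the whole interval past 2-fold. Between the resistant lines, 1 gene was lower with a mean of at least 50 counts, FPKM with a pseudocount of 1 or the whole interval past 2-fold, since SPATA18 dropped out. With total counts or FPKM, SFN left and PLK2 joined the genes past 2-fold in CAL27/5FU. GDF15, AEN, PERP and TP53INP1 in CAL27/5FU and AEN and TP53INP1 in CAL27/OXA were past 2-fold in 9 of 9 alternatives. Of 753 values of single p53 targets under alternatives, 0 called values changed sign, 122 moved beyond their counting interval and 631 did not. The depth limits SPATA18, with 15 to 45 counts, and EDA2R, with 0.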
